A study of Danio rerio with 6 samples.

Results

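The genes described here are the germ plasm genes of the zebrafish: buc, dazl, tdrd6, tdrd7, ddx4, dnd1, nanos3 and piwil1. They were chosen by name, as rows of the deposited table that carry these symbols, and 6 of the 8 symbols were found as written. The other two stood under older symbols and were found by gene ID, ddx4 as vasa and dnd1 as dnd, so 8 of the 32571 genes in the table are described. Whole embryos of the AB strain were sequenced in 6 groups, and RNA of 40 to 50 embryos was extracted together. The groups at 6 hours post fertilisation (hpf) were embryos that had received a morpholino (miR-430 MO), that is an antisense oligonucleotide that blocks the microRNA miR-430, embryos that had received CNOT7-DN, embryos that had received alpha-amanitin (amanitin), a control for the amanitin experiment (control B) and a control (control 6 hpf). The remaining group was a control at 2 hpf (control 2 hpf). The series design describes CNOT7-DN as inhibition of CNOT7, a deadenylase that shortens the poly(A) tail of mRNA, and alpha-amanitin blocks RNA polymerase II. Whether control embryos were injected is not stated in the labels. The series design names 3 replicates per group, but the table gives 1 value per gene and group, so no value here carries a standard deviation. Differences were called from the q-value of Cuffdiff in the authors' deposited table, and a gene is said to have risen or fallen only where that q was under 0.05.

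Germ plasm is a store of RNA and protein that the mother lays down in the egg. In zebrafish the cells that take it up become the primordial germ cells, and much of the same RNA also lies outside the germ plasm, in cells that form the body. The microRNA miR-430 is made when the embryo starts to transcribe its own genome. It is known to promote deadenylation and decay of many egg mRNAs, and in zebrafish nanos3 (then called nanos1) and tdrd7 are known targets that are cleared from body cells and kept in germ cells. Of the 8 genes, buc encodes Bucky ball, which organises germ plasm in zebrafish. Tudor domain proteins encoded by tdrd6 and tdrd7 belong to germ granules. The RNA helicase Vasa is encoded by vasa, and piwil1 (Ziwi) encodes an Argonaute protein that binds piRNAs. The genes dazl, dnd and nanos3 encode RNA-binding proteins that act on mRNA stability and translation in germ cells. In whole embryos, fewer germ cells and less RNA per cell cannot be told apart, nor can RNA of germ cells be separated from egg RNA elsewhere in the embryo.

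The 8 genes lie apart from each other in the genome (build Zv9, coordinates as the table gives them). The gene buc (ENSDARG00000096095) was placed on chromosome 2 from 28022980 to 28027100, and dazl (ENSDARG00000036214) on chromosome 19 from 20871400 to 20886168. The Tudor gene tdrd6 (ENSDARG00000070052) was on chromosome 20 from 35470063 to 35484057 and tdrd7 (ENSDARG00000032808) on chromosome 1 from 11492070 to 11524487. On chromosome 1 also lay nanos3 (ENSDARG00000068255), from 55787172 to 55788301. The row vasa (ENSDARG00000014373) was on chromosome 10 from 6548794 to 6570246 and dnd (ENSDARG00000022813) on chromosome 14 from 7366000 to 7377476. The locus of piwil1 (ENSDARG00000041699), on chromosome 8 from 45837726 to 45912215, overlapped that of 1 other row, fzd10, whose highest level in any group was 5.12 FPKM. No other row overlapped the remaining 7 loci.

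Several checks bear on the groups as a whole. Summed FPKM, which is fragments scaled for gene length and for the fragments mapped, ranged over the groups from 726913 in control 2 hpf to 1035854 in control 6 hpf. Markers of the enveloping layer, the outer epithelium of the embryo, summed to 1.55 FPKM over 5 rows in amanitin, against 3162 in control B, 3145 in control 6 hpf and 1.52 in control 2 hpf. Those of mesendoderm summed over 6 rows to 0.828 in amanitin, against 1022 in control B and 837 in control 6 hpf, so these markers of transcription by the embryo were near 0 after amanitin. The row of cnot7 stood at 12850 FPKM in CNOT7-DN, against 7.4 FPKM in control 6 hpf. FPKM does not show whether these reads came from the supplied CNOT7-DN or from the embryo's own gene. Markers of the somatic cells of the ovary summed to at most 0.312 FPKM over 6 rows in any group. No row of the table gives the activity of miR-430.

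At 2 hpf, before most transcription by the embryo, RNA of the 8 genes was present at 28.3 to 546 FPKM, with a median of 93.4. FPKM is scaled for length, so levels may be set side by side. Highest was buc at 546 FPKM, which placed it above 99.03% of the 14122 genes that reached 1 FPKM in that group. Next came dazl at 209 and tdrd6 at 177 FPKM, then vasa at 95.5 and nanos3 at 91.3. Lower levels were those of tdrd7 at 56.6, dnd at 44.2 and piwil1 at 28.3 FPKM. With 1 value per group, it cannot be said whether neighbours in this order, such as vasa and nanos3, differ beyond the spread between replicates. At 6 hpf the order was another one, since vasa at 90.6 FPKM came next to buc at 96.5 in control 6 hpf and was above it in control B, at 82.3 against 80.5. The lowest level in both 6 hpf controls was that of dnd, at 7.93 FPKM in control B and 10.4 in control 6 hpf.

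**Figure D1:**
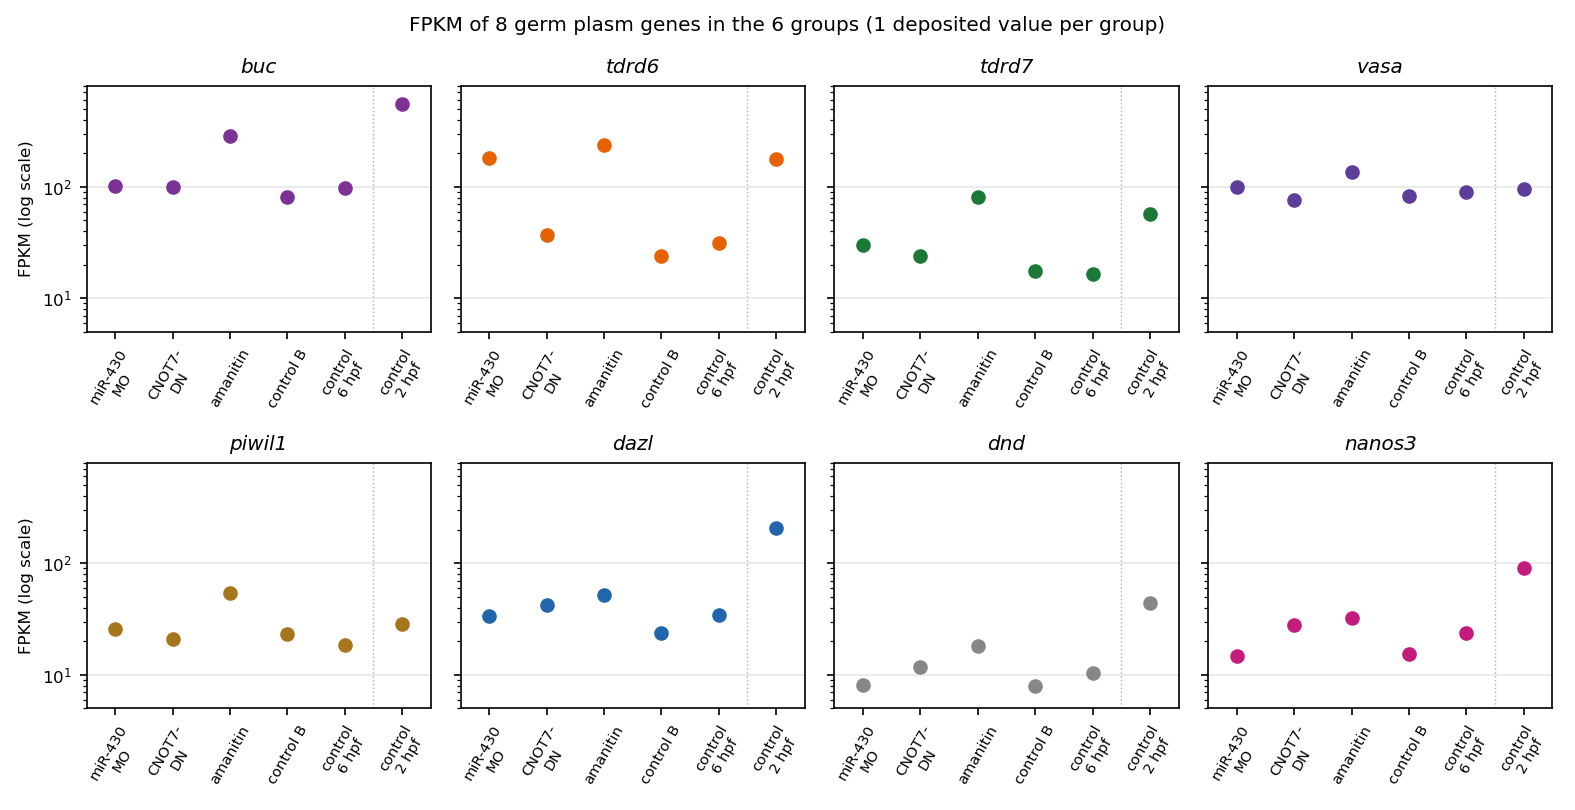
FPKM (log axis) of each of the 8 germ plasm genes in the 6 groups, 1 point per group, with the 2 hpf control right of the dotted line. The point of tdrd6 in miR-430 MO, at 180.3 FPKM, lies near its level at 2 hpf, and that of vasa varies least over the groups, between 75.6 and 136 FPKM.

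Between 2 and 6 hpf most of these RNAs fell, and the 8 genes did so to very different degrees. Of the 8, 7 fell in the authors' deposited table, where 51.7% of the 15504 genes tested fell. None of the 8 rose by Cuffdiff's q, nor by its unadjusted p under 0.05, while 20.8% of genes tested rose. That share also covers genes low at 2 hpf, unlike these 8, and no share over genes already present at 2 hpf was computed. By size, 6 of the 8 were at least 2-fold lower, against 29.9% of 16333 genes that reached 1 FPKM in either group. Sizes are log2 ratios of FPKM + 1, on which the 8 genes had a median of -1.94 and all genes considered one of -0.47. Rescaled to equal summed FPKM, the members' log2 ratios ran from -3.06 for dazl to -0.58 for vasa.

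The genes with the largest falls were dazl, buc and tdrd6. The germ cell translation factor dazl stood at 34.4 FPKM in control 6 hpf and 23.6 FPKM in control B, against 209 at 2 hpf. That is 16.5% of its 2 hpf level in control 6 hpf and 11.3% in control B. Its fall of 2.57 on the log2 scale (q = 0.0001 in the authors' deposited table) was larger than that of all but 1.21% of the genes considered. The organiser buc was at 96.5 FPKM in control 6 hpf, against 546 at 2 hpf, and fell by 2.49. With 31.6 FPKM in control 6 hpf against 177 at 2 hpf, tdrd6 fell by 2.45. These 3 genes kept 16.5% to 17.8% of their 2 hpf FPKM in control 6 hpf.

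Falls of intermediate size were those of dnd, nanos3 and tdrd7. The RNA-binding protein gene dnd, needed for germ cells to survive in zebrafish, was at 10.4 FPKM in control 6 hpf against 44.2 at 2 hpf, or 23.6% of that level. The translational repressor gene nanos3 was at 23.9 against 91.3 FPKM, or 26.2%, and tdrd7 at 16.6 against 56.6 FPKM, or 29.3%. For each of these 3 genes q was 0.0001 in the authors' deposited table.

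The smallest differences were those of piwil1 and vasa. The Argonaute gene piwil1 was at 18.6 FPKM in control 6 hpf against 28.3 at 2 hpf, and fell by 0.58 with a q of 0.0426 in the authors' deposited table. Its level in control B was 23.1 FPKM, which is 81.6% of that at 2 hpf, a log2 ratio of -0.28. The ratio of piwil1 in control 6 hpf also moves with the scaling. It was -0.115 centred on the median gene, -1.06 at equal summed FPKM and -1.51 centred on ribosomal protein genes. The helicase gene vasa was at 90.6 FPKM in control 6 hpf and 82.3 FPKM in control B, against 95.5 at 2 hpf, and did not pass (q = 0.537 in the authors' deposited table; log2 ratio -0.075). That ratio moves with the scaling, and was 0.39 centred on the median gene, -0.58 at equal summed FPKM and -1.005 centred on ribosomal protein genes. FPKM does not show whether the RNA of these genes persisted or was replaced by new transcription.

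**Figure D2:**
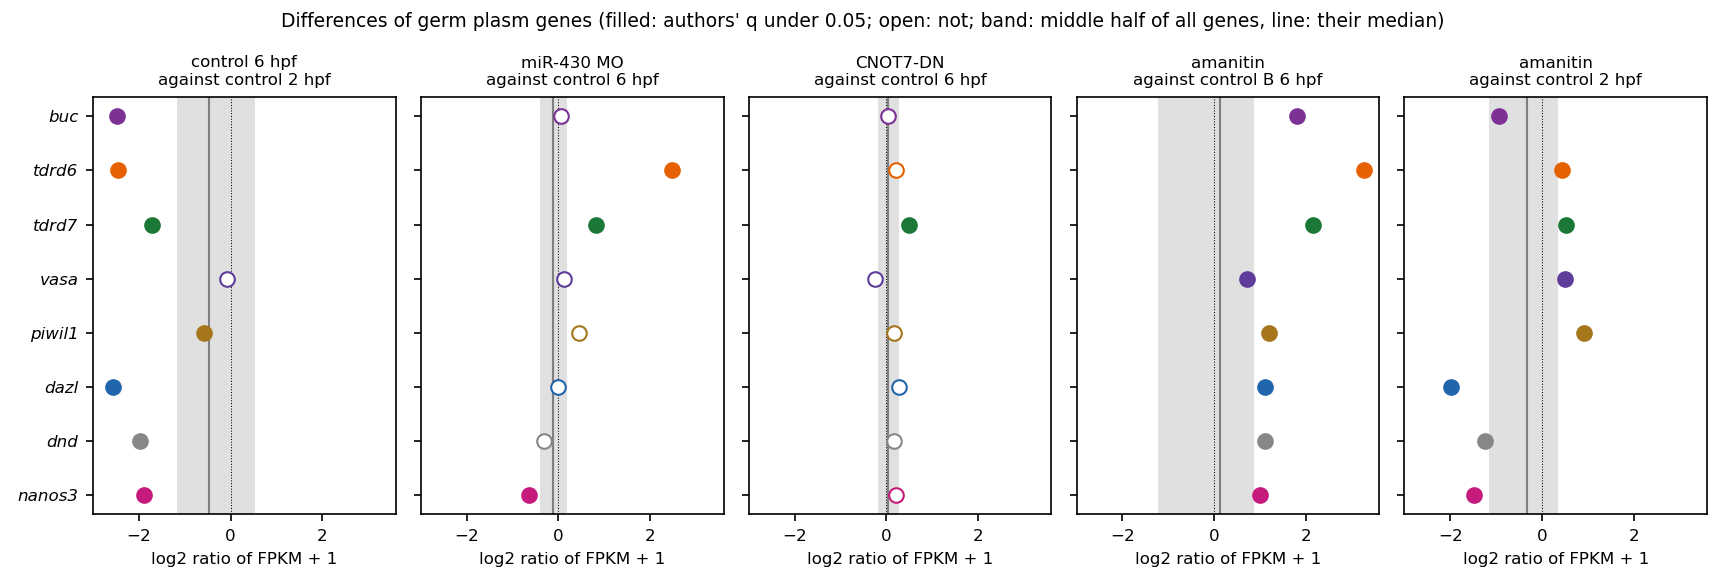
Log2 ratio of FPKM + 1 of each germ plasm gene in the 5 comparisons of the authors' deposited table, filled where their q was under 0.05. The grey band spans the quartiles of all genes that reached 1 FPKM in either group and the grey line marks their median. In miR-430 MO tdrd6 stands apart at 2.48, and against control B each of the 8 genes is filled and right of 0 in amanitin.

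The miR-430 morpholino asks which of these RNAs depend on miR-430 for their fall. It does not ask this of vasa, which had not fallen by q, and the fall of piwil1 was small. In miR-430 MO tdrd6 rose to near its 2 hpf FPKM, tdrd7 rose less, nanos3 fell and the other 5 did not pass. In all, 2 of the 8 rose and 1 fell by q in the authors' deposited table, where 9.41% of 14301 genes tested rose and 16.1% fell. The 8 genes had a median log2 ratio of 0.093 and all 15611 genes considered one of -0.12. By size, only tdrd6 of the 8 was at least 2-fold higher, as were 2.66% of the genes considered.

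Levels of tdrd6 were 180.3 FPKM in miR-430 MO, 36.9 with CNOT7-DN, 239 in amanitin, 23.8 in control B, 31.6 in control 6 hpf and 177 in control 2 hpf. In FPKM, miR-430 MO and amanitin thus lay at or above the 2 hpf level. The other 6 hpf groups lay far below it. Its rise in miR-430 MO over control 6 hpf was 2.48 on the log2 scale (q = 0.000589 in the authors' deposited table), the 35th largest of 15611 genes. Set against control B in place of control 6 hpf, the log2 ratio was 2.87. In miR-430 MO tdrd6 reached 101.7% of its 2 hpf FPKM, a pair of groups for which the table holds no test. Summed FPKM was 1010944 in miR-430 MO and 726913 in control 2 hpf, so this share depends on the scaling. At equal sums it would be lower.

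Levels of tdrd7 were 29.9 FPKM in miR-430 MO, 23.8 with CNOT7-DN, 81.4 in amanitin, 17.6 in control B, 16.6 in control 6 hpf and 56.6 in control 2 hpf. It rose by 0.81 in miR-430 MO over control 6 hpf (q = 0.000589 in the authors' deposited table), which is more than 95.8% of genes. Its FPKM in miR-430 MO was 52.8% of that at 2 hpf, a share that depends on the scaling as that of tdrd6 does. Against control B the log2 ratio was 0.73. The controls lay close to each other for this gene, with a log2 ratio of 0.076 for control B over control 6 hpf.

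For nanos3 the levels were 14.9 FPKM in miR-430 MO, 27.8 with CNOT7-DN, 32.2 in amanitin, 15.5 in control B, 23.9 in control 6 hpf and 91.3 in control 2 hpf. It fell by 0.65 in miR-430 MO over control 6 hpf (q = 0.00231 in the authors' deposited table). Against control B the log2 ratio was only -0.056, and control B itself lay lower than control 6 hpf by a log2 ratio of -0.60. The lower level in miR-430 MO was thus seen against 1 of the 2 controls at this stage.

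The remaining members did not pass with the morpholino in the authors' deposited table, with q between 0.149 and 0.954. Their levels were 33.9 FPKM in miR-430 MO against 34.4 in control 6 hpf for dazl, and 101 against 96.5 for buc. For vasa they were 98.98 FPKM in miR-430 MO against 90.6 in control 6 hpf, and for dnd 8.13 against 10.4. The level of piwil1 was 25.7 FPKM in miR-430 MO against 18.6 in control 6 hpf, a log2 ratio of 0.45 that did not pass (q = 0.243 in the authors' deposited table).

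Egg RNAs that decline by 6 hpf give a frame for these values. To keep control 6 hpf out of the choice, they were taken as the 4960 genes at an FPKM of at least 5 at 2 hpf and at least 2-fold lower in control B. In miR-430 MO against control 6 hpf this set had a median log2 ratio of -0.20, with quartiles of -0.48 and 0.12. Of 4777 tested, 11.8% rose and 21.7% fell by q in the authors' deposited table. The set holds 6 of the germ plasm genes, all but vasa and piwil1, with a median of 0.021. Within it tdrd6 had the fifth largest ratio.

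In CNOT7-DN, which asks about dependence on the deadenylase, 1 of the 8 genes passed the test. This was tdrd7, which rose in the authors' deposited table, where 10.1% of 14439 genes tested rose and 4% fell. It stood at 23.8 FPKM in CNOT7-DN against 16.6 FPKM in control 6 hpf, a rise of 0.49 (q = 0.0018 in the authors' deposited table). None of the 8 fell by Cuffdiff's q, and 1, vasa, was lower at an unadjusted p under 0.05. Its levels were 75.6 FPKM in CNOT7-DN against 90.6 FPKM in control 6 hpf (q = 0.145 in the authors' deposited table).

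The log2 ratios of the 6 genes other than tdrd7 and vasa ran from 0.035 for buc to 0.28 for dazl, and the 8 genes had a median of 0.19. All 15626 genes considered had a median of 0.037. Egg RNAs at least 2-fold lower in control B, as above, had a median of 0.26, and 24.0% of 4859 tested rose in the authors' deposited table. For the 6 germ plasm genes among them the median was 0.21. For tdrd6 the level was 36.9 FPKM in CNOT7-DN against 31.6 FPKM in control 6 hpf, which did not pass (q = 0.477 in the authors' deposited table). Against control B in place of control 6 hpf the log2 ratios were larger for dazl, nanos3, tdrd6, dnd and buc, at 0.81, 0.80, 0.61, 0.52 and 0.29. With that control tdrd7 had a log2 ratio of 0.42, vasa one of -0.12 and piwil1 one of -0.14, the last of these with its sign turned, and no test of these pairs is in the table. Since miR-430 MO and CNOT7-DN share control 6 hpf, and no test of 1 against the other is in the table, their values for tdrd6, 180.3 and 36.9 FPKM, are given side by side only.

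**Figure D3:**
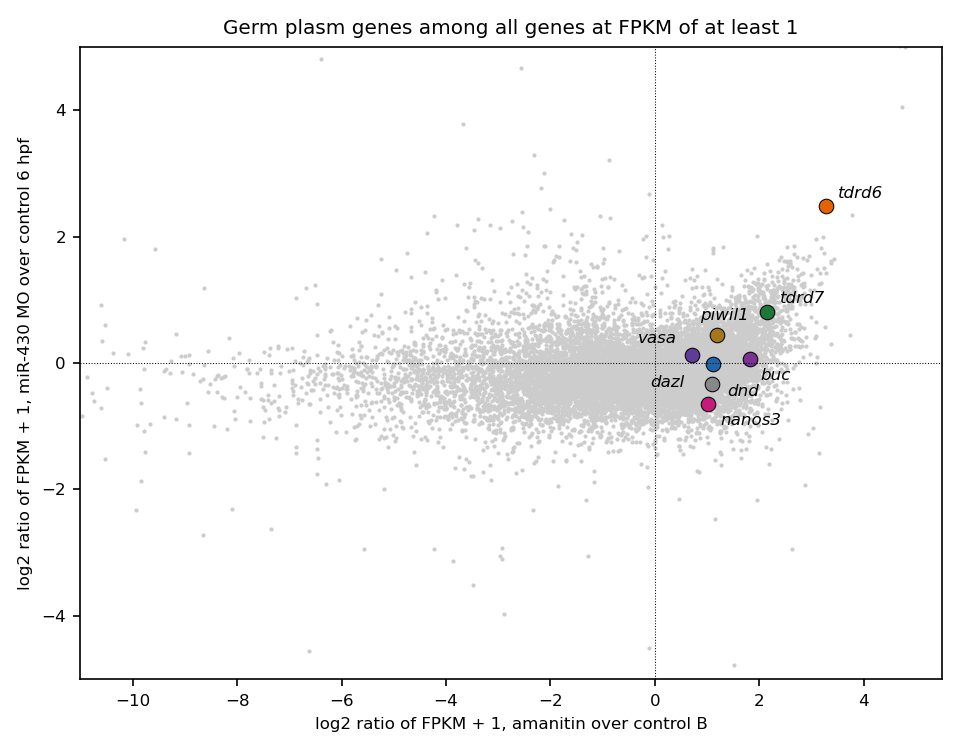
Log2 ratio of FPKM + 1 in amanitin over control B (horizontal) and in miR-430 MO over control 6 hpf (vertical) for 15160 genes that reached 1 FPKM in both comparisons, of which 24 lie outside the axes. Of the germ plasm genes, drawn as large points, tdrd6 is at the upper right with 3.27 and 2.48, and the other 7 have ratios of 0.72 to 2.15 in amanitin and -0.65 to 0.81 in miR-430 MO.

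Amanitin asks which of these RNAs depend on transcription by the embryo for their fall. That question does not reach vasa, which had not fallen by q between 2 and 6 hpf. For piwil1 it rests on a small fall, of 0.58 in control 6 hpf (q = 0.0426 in the authors' deposited table). In control B, the reference here, the log2 ratio of piwil1 over 2 hpf was -0.28. FPKM is relative to the RNA sequenced, so a rise here is a rise in the share of that RNA. Each of the 8 genes rose over control B in the authors' deposited table, with a q of 0.000105 for each, where 41.6% of 15235 genes tested rose and 29.2% fell. By size, 7 of the 8 were at least 2-fold higher, against 20.5% of 16114 genes considered. The median log2 ratio was 1.15 for the 8 genes and 0.12 for all genes considered. Centred on the median gene, 4 of the 8 were at least 2-fold higher. With control 6 hpf as the control the number was also 4. Rescaled to equal summed FPKM, the members' log2 ratios ran from 1.08 for vasa to 3.64 for tdrd6.

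The Tudor genes and buc had the largest rises. With 239 FPKM in amanitin against 23.8 in control B, tdrd6 had a log2 ratio of 3.27, the 15th largest of 16114 genes. The level of tdrd7 was 81.4 FPKM in amanitin against 17.6 in control B, a log2 ratio of 2.15. For buc the levels were 286 FPKM in amanitin and 80.5 in control B, a log2 ratio of 1.81. These 3 genes lay 3.55-fold or more above control B in FPKM.

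Rises of 2.08-fold to 2.34-fold in FPKM were those of piwil1, dazl, dnd and nanos3. The levels were 54.1 FPKM in amanitin against 23.1 in control B for piwil1, and 52.2 against 23.6 for dazl. For dnd they were 18.1 FPKM in amanitin against 7.93 in control B, and for nanos3 32.2 against 15.5. The smallest rise, 0.72, was that of vasa, at 136 FPKM in amanitin against 82.3 in control B. The 4210 egg RNAs set beside these had an FPKM of at least 5 at 2 hpf. They were at least 2-fold lower in control 6 hpf, with a q under 0.05 for that fall in the authors' deposited table. Their median log2 ratio of amanitin over control B was 0.80, and 64.1% of 4138 tested rose in the authors' deposited table. For the 6 germ plasm genes among them the median was 1.46.

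Amanitin embryos against the 2 hpf control split the germ plasm genes evenly. By q in the authors' deposited table, 4 rose and 4 fell, where 22.2% of 13957 genes tested rose and 44.1% fell. FPKM is relative to the RNA sequenced, so a gene can rise in this comparison without new RNA. The median of the 8 genes was -0.25 and that of all 14462 genes considered was -0.34. By size, 3 of the 8 were at least 2-fold lower, as were 28.3% of the genes considered, and these were dazl, nanos3 and dnd. None of the 8 changed sign on rescaling to equal sums or when centred on either the median gene or ribosomal protein genes.

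The genes that rose were piwil1, tdrd7, vasa and tdrd6. In amanitin piwil1 was at 54.1 FPKM against 28.3 at 2 hpf, which is 191% of that level and a rise of 0.91. For tdrd7 the levels were 81.4 FPKM in amanitin against 56.6 at 2 hpf, and for vasa 136 against 95.5. The level of tdrd6 was 239 FPKM in amanitin against 177 at 2 hpf, a rise of 0.43 with a q of 0.0195 in the authors' deposited table. For the other 3 q was 0.000123.

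The genes that fell in amanitin were dazl, nanos3, dnd and buc, with a q of 0.000123 each in the authors' deposited table. The largest fall, 1.98, was that of dazl, with 52.2 FPKM in amanitin against 209 at 2 hpf, or 24.99% of that level. With 32.2 FPKM in amanitin against 91.3 at 2 hpf, nanos3 kept 35.3%, and dnd kept 41.0%, with 18.1 against 44.2 FPKM. The level of buc was 286 FPKM in amanitin against 546 at 2 hpf, or 52.3%. These 4 genes therefore lay between their control B and their 2 hpf levels, whereas tdrd6, tdrd7, vasa and piwil1 lay above both.

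Ratios of 1 member to another within a group do not depend on how groups are scaled. The ratio of tdrd6 to buc in FPKM was 1.79 in miR-430 MO, 0.373 with CNOT7-DN, 0.835 in amanitin, 0.295 in control B, 0.327 in control 6 hpf and 0.324 in control 2 hpf. It thus lay between 0.295 and 0.327 in the 3 controls, and was highest in miR-430 MO and next in amanitin. The ratio of vasa to buc was 0.983 in miR-430 MO, 0.764 with CNOT7-DN, 0.476 in amanitin, 1.02 in control B, 0.939 in control 6 hpf and 0.175 in control 2 hpf. For nanos3 to buc it was lowest in amanitin, at 0.113, and highest in CNOT7-DN, at 0.281, against 0.248 in control 6 hpf.

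The 2 controls at 6 hpf were not tested against each other in the table. Their difference is the only measure here of how far controls lie apart, and the labels do not say that they were alike. Markers of egg RNA outside germ plasm summed to 1048 FPKM in control B and 1538 in control 6 hpf. Those of mesendoderm summed to 1022 and 837, and those of the enveloping layer to 3162 and 3145. None of the 8 genes differed 2-fold between them, as did 3.91% of 15826 genes considered. The log2 ratios of control B over control 6 hpf ran from -0.60 for nanos3 to 0.30 for piwil1, with -0.53 for dazl and -0.40 for tdrd6. The median was -0.31 for the 8 genes and -0.044 for all genes considered. Differences up to this size between treated embryos and 1 control are thus no larger than those between the controls.

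Patterns over the 6 groups were compared by the root mean square difference of log2(FPKM + 1), each gene centred on its own mean, among 10033 genes with a name on 1 row and an FPKM of at least 5 in some group. Nearest to tdrd6 were fam129bb at 0.23, tdrd1 at 0.28 and aida at 0.33. The levels of tdrd1, itself a germ granule gene of the piRNA pathway, were 52.5 FPKM in miR-430 MO, 19.5 with CNOT7-DN, 94.4 in amanitin, 9.13 in control B, 15.0 in control 6 hpf and 65.7 in control 2 hpf. Nearest to buc was the row GRAMD4 (2 of 2) at 0.16, to dazl ttyh2l at 0.12 and to dnd thraa at 0.064. For nanos3 it was zbtb47b at 0.082, for piwil1 tbc1d5 at 0.065 and for vasa hdac10 at 0.020. Among the members themselves, dnd and nanos3 were most alike, at 0.15, followed by dazl and dnd and by vasa and piwil1, both at 0.27. Many other genes searched were nearer to each of these. To dnd, nanos3 was the 58th nearest and dazl the 411th, while dnd was 35th to nanos3 and 87th to dazl. To vasa, piwil1 was the 1351st nearest, and vasa was 780th to piwil1. The largest difference of a pair was 1.26, between tdrd6 and nanos3.

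Other genes of the piRNA pathway, by which germ cells silence transposons, were taken from a list of 27 symbols, of which 24 rows were found. The list was drawn broadly and also holds genes not limited to this pathway, such as ddx6, so its counts are not those of the pathway alone. From 2 to 6 hpf, 3 of 24 tested rose and 16 fell by q in the authors' deposited table, against 20.8% and 51.7% of all genes tested. The Tudor gene TDRKH was at 8.37 FPKM in control 6 hpf against 56.2 at 2 hpf, and asz1, a germ granule gene on mitochondria, at 18.9 against 118.6. In miR-430 MO 6 of 24 rose and 1 fell by q in the authors' deposited table, against 9.41% and 16.1% of all genes tested. The largest rises were those of tdrd1 and of ddx6, a helicase of RNA decay bodies, at 99.6 FPKM in miR-430 MO against 43.2 in control 6 hpf. The others that rose were TDRD15, mov10a, mov10b.1 and prmt5. In CNOT7-DN 5 of 24 rose and 1 fell by q in the authors' deposited table, against 10.1% and 4% of all genes tested. The largest rise was that of pld6, at low levels, with 4.78 FPKM in CNOT7-DN against 2.02 FPKM in control 6 hpf. Next came the Argonaute gene piwil2, at 21.98 FPKM in CNOT7-DN against 12.6 FPKM in control 6 hpf. In amanitin over control B 18 of 23 tested rose and 2 fell by q in the authors' deposited table, against 41.6% and 29.2% of all genes tested. Of the egg RNAs lowered in control 6 hpf, described above, 64.1% of those tested rose in this comparison and 13.1% fell. The median log2 ratio of the list was -0.87 between 2 and 6 hpf, 0.063 with the morpholino, 0.13 with CNOT7-DN and 0.64 in amanitin over control B, against -0.47, -0.12, 0.037 and 0.12 for all genes considered.

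Genes of germ plasm assembly and localisation came from a list of 25 symbols, with 22 rows found. This list too was drawn broadly, so its counts are not those of germ plasm RNA alone. Of 19 tested, 3 rose and 13 fell from 2 to 6 hpf in the authors' deposited table, against 20.8% and 51.7% of all genes tested. The 3 that rose were cxcr4b, ybx1 and the row CABZ01092303.1, named ctnnb2 in the reference list. The largest rise was that of cxcr4b, the chemokine receptor that guides germ cells, at 219 FPKM in control 6 hpf against 10.1 at 2 hpf. It was at 2.04 FPKM in amanitin against 218 in control B. Whole embryos were sequenced, so these values of cxcr4b cannot be assigned to germ cells. The largest falls were those of ca15b, whose RNA lies in zebrafish germ plasm, at 102 FPKM in control 6 hpf against 781 at 2 hpf, and of mid1ip1l, whose product acts on the cytoskeleton that gathers germ plasm, at 179 against 1129. In miR-430 MO 2 of 19 rose and 3 fell by q in the authors' deposited table, shares near the 9.41% and 16.1% of all genes tested. The 3 that fell were mid1ip1l, ca15b and cxcr4b. Levels of mid1ip1l were 105 FPKM in miR-430 MO, 179 in control 6 hpf and 124 in control B. In the same order they were 64.9, 102 and 71.9 for ca15b, and 167, 219 and 218 for cxcr4b. For mid1ip1l and ca15b, control B thus lay nearer to miR-430 MO than control 6 hpf did. In CNOT7-DN 2 of 19 rose by q in the authors' deposited table, a share near the 10.1% of all genes tested. The largest rise was that of the egg linker histone gene h1m, at 756 FPKM in CNOT7-DN against 314 FPKM in control 6 hpf. This gene was also listed here among egg RNAs outside germ plasm, so its rise is not one of germ plasm RNA alone. In amanitin over control B 14 of 21 tested rose and 2 fell by q in the authors' deposited table, against 41.6% and 29.2% of all genes tested. Of the egg RNAs lowered in control 6 hpf, described above, 64.1% of those tested rose in this comparison and 13.1% fell. The median log2 ratio of this list was -0.84 between 2 and 6 hpf, -0.067 with the morpholino, 0.17 with CNOT7-DN and 0.89 in amanitin over control B.

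Since tdrd6 and tdrd7 were the members that rose in miR-430 MO, other Tudor domain genes were looked up by name, a choice made after their values were seen. Only rows named tdrd with a number, or tdrkh, were taken, so Tudor domain genes under other names are left out. The table and the list of reference names held 11 rows with these names, tdrd6 and tdrd7 included. The other 9 were already counted above, in the piRNA list or in that of germ plasm assembly. Their rises are therefore the same observations and not further ones. In miR-430 MO 5 of the 10 tested rose by Cuffdiff's q in the authors' deposited table, and 3 of 8 without tdrd6 and tdrd7, against 9.41% of all genes tested. Besides tdrd6, tdrd7 and tdrd1 these were the row BX005321.3, named tdrd6b in the reference list (chromosome 17, 6372341 to 6377240), and TDRD15. The row BX005321.3 was at 54.0 FPKM in miR-430 MO, 36.4 with CNOT7-DN, 64.8 in amanitin, 13.9 in control B, 17.5 in control 6 hpf and 83.9 in control 2 hpf. It rose by 1.57 in miR-430 MO and by 1.02 in CNOT7-DN, passing in both (q = 0.000589 and 0.000996 in the authors' deposited table). TDRD15 was at 23.2 FPKM in miR-430 MO against 16.9 in control 6 hpf, but at 34.7 in control B. Of the Tudor genes that did not pass with the morpholino, tdrd5 was at 12.6 FPKM in miR-430 MO against 16.2 in control 6 hpf, and TDRKH at 6.59 against 8.37. In amanitin over control B 10 of the 11 rose in the authors' deposited table, and 8 of 9 without tdrd6 and tdrd7. Of all genes tested 41.6% rose, and of the egg RNAs lowered in control 6 hpf, described above, 64.1%. The largest rises were those of tdrd6 and tdrd1, at 3.27 and 3.24.

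**Figure D4:**
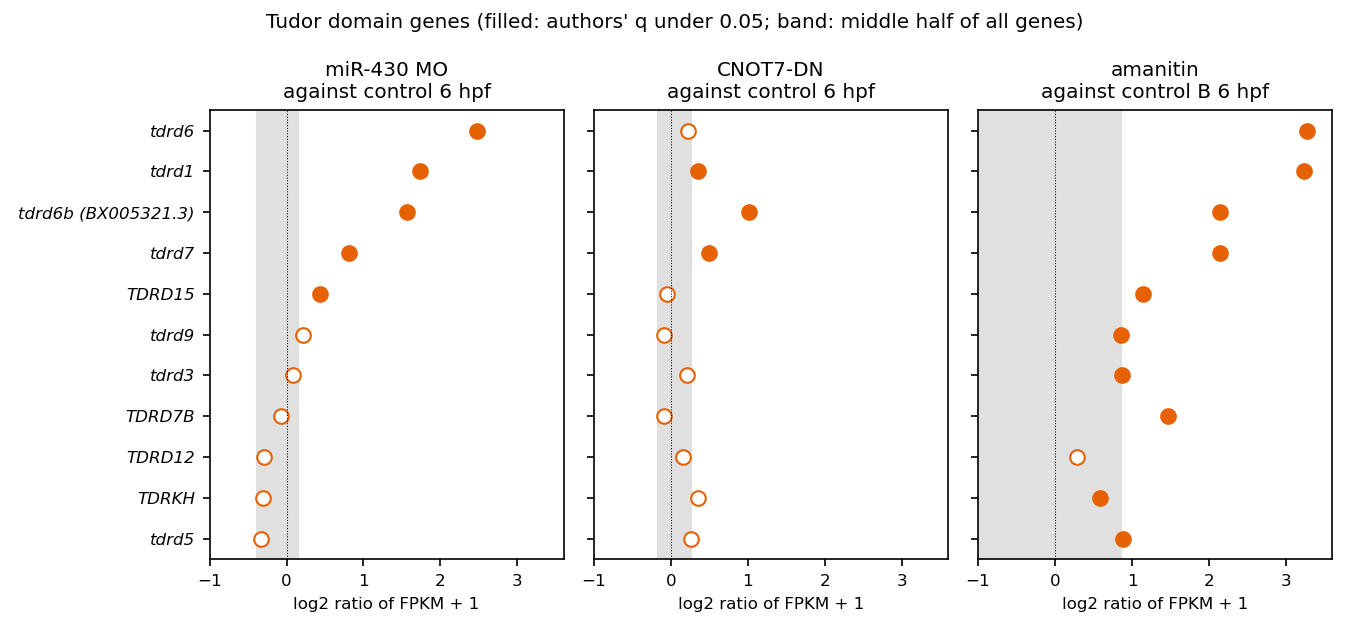
Log2 ratio of FPKM + 1 of the 11 Tudor domain genes found by name, in miR-430 MO and CNOT7-DN over control 6 hpf and in amanitin over control B. Points are filled where the authors' q was under 0.05. The row TDRD7B is open in the first 2 panels because it was too low to be tested there. The grey band spans the quartiles of all genes that reached 1 FPKM in either group. The highest point in miR-430 MO is tdrd6 at 2.48, which lies at 0.22 in CNOT7-DN.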

How the data were processed

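Per the labels' protocols, libraries were stranded, from total RNA depleted of ribosomal RNA. The submitters' processing notes name TopHat 1.4.0, Cuffdiff 2.1.1 and the build Zv9 (danRer7). For each of 5 comparisons the deposited table holds both groups' FPKM with a p-value and a q-value, per the file headers. How libraries were scaled, whether strand was used in counting and the annotation release were not given in the sources used here, and read depth is unknown. The labels list 1 sample per group, so the spread that entered q cannot be seen here. It is not stated whether replicates were separate clutches, so q may reflect technical spread alone. The authors' calls matched q under 0.05 in each of 162855 cases. FPKM of a member given in several comparisons differed by at most 0.00389%. Log2 ratios used a pseudocount of 1 FPKM, over genes that reached 1 FPKM in either group. No p-value was computed here.

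Members and lists were chosen with earlier results of these data known. List symbols were matched exactly, then by gene ID, then with case ignored. The named genes were the 8 members, up to 3 list genes per direction (q under 0.05, 5 FPKM or more in either group), of which some are printed, and the 3 nearest genes per member, of which the first is printed, or all for tdrd6, and none for tdrd7, whose nearest gene is not reported here. Alternatives were other pseudocounts, FPKM minimums, folds, scalings and the other control. The 2-fold rule alone was run on simulated FPKM with larger set differences, a check of the calculation that does not bear on the authors' q. Python 3.11.15, numpy 2.4.6 and pandas 2.3.3 were used.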

Additional observations from a re-analysis of the deposited data

How the results depend on the processing

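With 1 value per group, no leave-one-out value could be had. No paired analysis was possible because the table gives 1 value per group. Counts of members moved by more than 1.5 times, or to or from 0, only as follows. With a 4-fold limit in place of 2-fold, 3 members were lower in control 6 hpf than at 2 hpf, 2 were higher in amanitin than in control B, and 0 were lower in amanitin than at 2 hpf. With a 1.5-fold limit, 2 members were higher and 1 lower in miR-430 MO, 1 was higher in amanitin than at 2 hpf, and 1 was lower in control B than in control 6 hpf. Without tdrd6, a setting chosen after seeing the data, 0 members were at least 2-fold higher in miR-430 MO and 1 was called higher there. Centred on the median gene, 4 members were at least 2-fold higher in amanitin than in control B and 1 was higher in amanitin than at 2 hpf. With control 6 hpf in place of control B, 4 were at least 2-fold higher in amanitin. The other 178 counts stayed within that range, and no called member changed sign under any setting run. Of members not called, vasa between 2 and 6 hpf and buc in CNOT7-DN turned sign when centred on the median gene, at 0.39 and -0.0017. In miR-430 MO dazl turned to 0.016 at equal sums, 0.101 centred on the median gene and 0.51 against control B, where dnd turned to 0.033. In CNOT7-DN piwil1 turned to -0.14 against control B. The authors' q cannot be recomputed under another scaling. The cause of these shifts was not tested.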

Other observations

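Genes of other RNA-binding proteins of the egg and early embryo were taken from a list of 28 symbols, with 22 rows found. By q in the authors' deposited table, 10 of 19 tested rose and 6 fell from 2 to 6 hpf, against 20.8% and 51.7% of all genes tested. The oncofetal RNA-binding protein gene igf2bp1 was at 103 FPKM in control 6 hpf against 28.03 at 2 hpf, and the egg gene zar1l at 56.6 against 496. In CNOT7-DN 3 of 19 rose and 1 fell by q in the authors' deposited table, against 10.1% and 4% of all genes tested, and zar1l was at 133 FPKM in CNOT7-DN against 56.6 FPKM in control 6 hpf, whereas it was at 25.8 FPKM in miR-430 MO. The poly(A)-binding protein gene pabpn1l was at 175 FPKM in CNOT7-DN against 87.0 FPKM in control 6 hpf. In amanitin over control B 6 of 20 tested rose and 9 fell by q in the authors' deposited table, against 41.6% and 29.2% of all genes tested.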
